A study of Xenopus tropicalis with 4 samples.

Results

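The genes described here are transcription factors of the families that pattern the early vertebrate embryo, measured by RNA-seq in animal caps (ACs) of Xenopus tropicalis. They are the gene identifiers whose symbol begins with the prefix of the Fox, Sox, Hox, Pax, Gata, Tfap2, Klf, Lhx, Dlx, Msx, Irx, Tbx, Zic, Nkx, Pou, Grhl, Ventx or sine oculis homeobox family. Of 84 such symbols, 7 were left out by the same rule (foxj1, foxn4, foxi1, foxa1 and the 3 pou5f3 genes), which leaves 77 members of the 34178 gene identifiers in the count files. They fall into 17 of the 18 families, since no named identifier carries a symbol of the sine oculis homeobox family. Only 6622 of the 34178 identifiers have a name, so that further genes of all 18 families may stand unnamed in the count files. Of the 77, 75 are transcription factors. The other 2 share only a prefix: foxred2 encodes a protein with an oxidoreductase domain, and gatad2b a subunit of the NuRD chromatin complex. RefSeq's gene table for the assembly UCB_Xtro_10.0 holds 75 of the 77 symbols.

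ACs are explants of the prospective ectoderm of the blastula, which form a mucociliary epidermis in culture. The embryos were injected radially at an early cleavage stage, either with a control morpholino (CoMo) or with a mixture (H1H2Mo) of a suv4-20h1 and a suv4-20h2 morpholino. Both conditions were collected at NF16, when sibling embryos are neurulae, and each library holds the RNA of many pooled ACs. There were 2 libraries per condition. Morpholinos of this kind are antisense oligonucleotides that block translation, so that RNA counts do not check the depletion of their target. The enzymes SUV4-20H1 and SUV4-20H2 carry monomethylated lysine 20 of histone H4 to its higher methylation states. The comparison asks which genes of the differentiating ectoderm change their RNA level when both enzymes are depleted.

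Transcription factors of these families bind DNA through a domain shared within the family (a homeodomain in the Dlx, Msx, Nkx2, Hox, Irx, Lhx and Ventx proteins, a forkhead domain in Fox, an HMG box in Sox, a T-box in Tbx, zinc fingers in Gata, Klf and Zic). In the ectoderm of the frog embryo, signalling by bone morphogenetic proteins (BMPs) keeps cells non-neural and switches on genes such as those of the Ventx, Msx, Dlx, Gata and Tfap2 families. Where BMP signalling is blocked, cells take a neural fate and express genes of the Zic, Irx and Pou3 families, while Nkx2, Tbx20 and Sox17 genes are best known from heart and endoderm.

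The libraries hold between 17054150 and 47407319 read pairs on genes, and CoMo replicate 2 is the deepest. The reverse strand took 97.49% of the stranded reads or more in every library, and its counts are used here. Levels are given as CPM (counts per 1000000 reads on genes, after TMM scaling) for CoMo replicates 1 and 2 and then for H1H2Mo replicates 1 and 2, and log2 fold changes (log2FC) are of H1H2Mo against CoMo, with their standard error (SE). A gene is called when its p, adjusted over all genes tested, is under 0.05 in edgeR's quasi-likelihood test. Nothing in the labels says that the libraries of a condition come from separate batches of embryos, so that the p-values measure only the spread between these libraries.

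The symbols themselves carry a selection. The deposited identifiers have no names, and 6622 of them were named from the parts at hand of the study's supplementary gene lists. One of these lists was ranked by p in the same CoMo and H1H2Mo libraries, so 17 members were in effect chosen by their change here, and all 17 were called, as were 98.9% of all genes on that ranked list. Their values are given below as a description, with no test, and nothing is read from their number. They are ventx1.1, ventx1.2, ventx3.2, zic1, zic2, foxa4, foxh1, lhx5 and klf17, which were higher in H1H2Mo, and dlx4, grhl2, nkx2-3, nkx2-5, nkx2-6, pou2f3, pou4f1.2 and tbx20, which were lower. The other 60 members were named through lists from other libraries of the study (PHF8 or lacZ mRNA, and PHF8 together with H1H2Mo), and tests are given for these.

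Of the 77 members, 74 were tested and 21 were called, 12 lower and 9 higher. Over all 19372 genes tested, 16.5% were called, 10.7% lower and 5.83% higher. The 74 had a median log2FC of 0.01, beside 0.05 over all genes tested, and 37 had a fitted log2FC below 0 and 37 above it. The conditions did not overlap for 21 members that were higher in both H1H2Mo libraries and for 23 that were lower, which are shares close to the background (28.8% and 30.7% of all genes tested, 59.5% together), and they overlapped for 30. Under upper-quartile scaling the calls were 10 lower and 13 higher. Among the 57 tested members named outside the ranked list, 4 were called, all of them lower (7.02%). Of all 4407 genes named in the same way, members included, 12.6% were called in either direction and 6.33% were called lower. In the other direction 0 of these 57 were called by edgeR. At an unadjusted p under 0.05 in edgeR, 12 of the 57 were lower and 7 higher. The share of all genes under that unadjusted p was not counted, so that nothing is read from these numbers. Of the 57, DESeq2 called 9 lower and 5 higher, beside 2348 lower and 1541 higher of all 19372 genes. The DESeq2 share over genes named in the same way was not counted. With the naming restricted further to the 2 lists that involve no H1H2Mo library, 3 of 31 were called (9.68%), beside 7.47% of such genes. Outside the ranked list, the share of members called by edgeR thus lay below or near the background, and what follows concerns which of them changed. The plot of fold changes by family shows that calls in both directions occurred only in the Fox and Klf families.

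**Figure D1:**
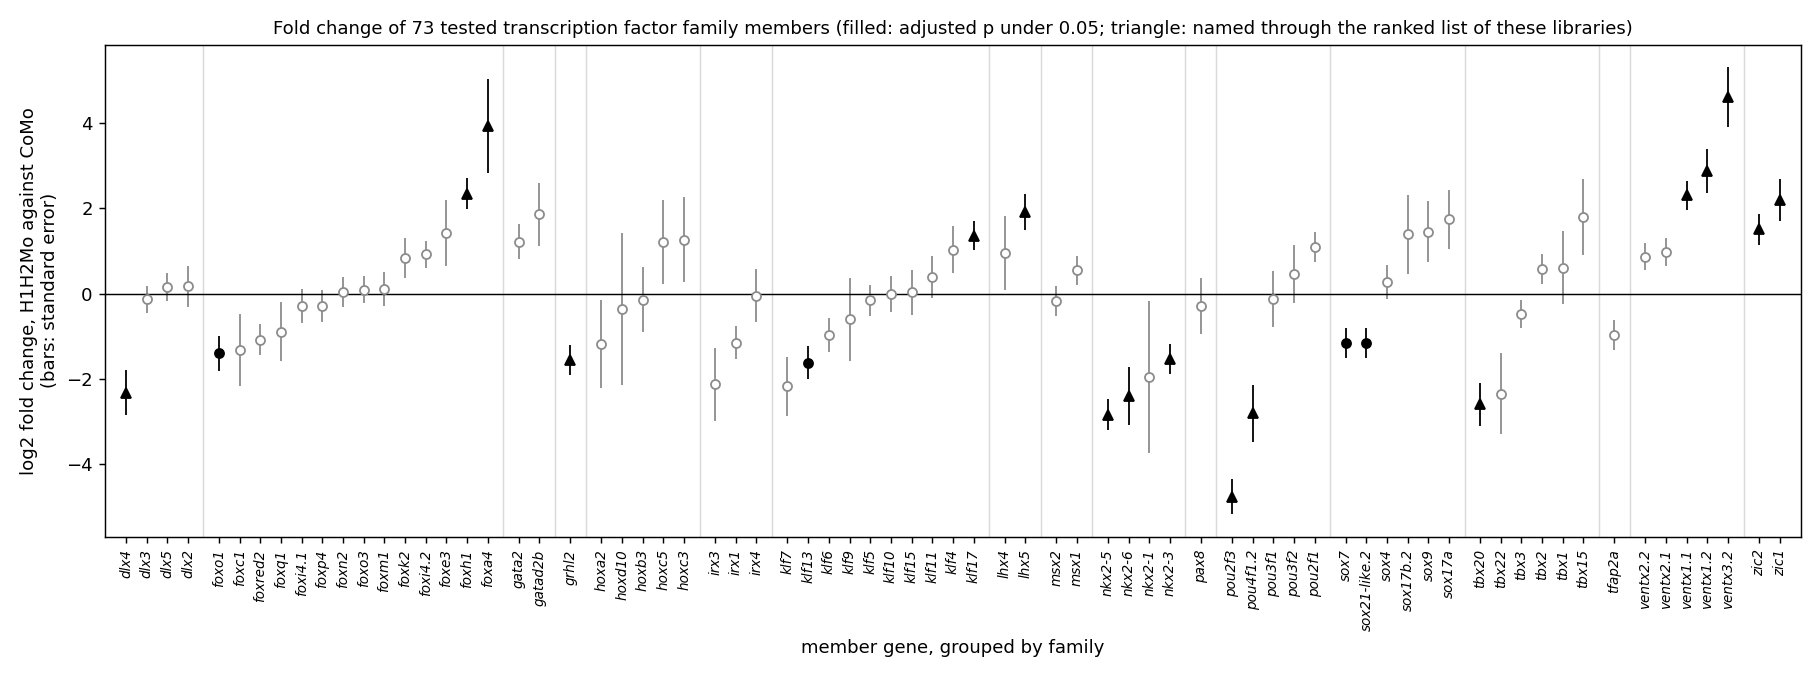
Fold change of 73 of the 74 tested members, grouped by family. The y axis gives the log2 fold change of H1H2Mo against CoMo with its standard error, filled symbols are called genes, and triangles are the 17 genes named through the list ranked by p in these libraries. The Ventx and Zic genes lie above 0, the Nkx genes below it, and the values span from pou2f3 at -4.76 to ventx3.2 at 4.60.

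Ventx genes encode homeodomain repressors that are induced by BMP signals and promote ventral fates in the frog. All 5 members of the family were higher in both H1H2Mo libraries than in both CoMo libraries, as were 28.8% of all genes tested. The 3 called are the 3 on the ranked list, and nothing is read from that number. For ventx1.1, levels were 13.8 and 11.6 CPM in CoMo against 64.6 and 60.4 CPM in H1H2Mo, a log2FC of 2.30 (SE 0.34). For ventx1.2 they were 1.95 and 1.03 CPM against 12.4 and 8.92 CPM, a log2FC of 2.88 (SE 0.52). The transcript of ventx3.2 was close to absent in CoMo, with 7 reads in each library (0.427 and 0.159 CPM), and reached 4.97 and 8.14 CPM in H1H2Mo, a log2FC of 4.60 (SE 0.70). In each of these genes the gap between conditions exceeded the gap between replicates. Such a gap was favoured by the ranked list, and nothing is read from it.

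The other pair of Ventx genes, which was not on the ranked list, moved less. For ventx2.1 levels were 40.9 and 27.6 CPM in CoMo against 63.3 and 71.2 CPM in H1H2Mo (log2FC 0.98, SE 0.33, adjusted p = 0.065). For ventx2.2 they were 24.3 and 23.0 CPM against 46.7 and 39.2 CPM (log2FC 0.86, SE 0.32, adjusted p = 0.091). Both missed the threshold, although the conditions did not overlap. DESeq2 called ventx2.1 (adjusted p = 0.046) and did not call ventx2.2 (adjusted p = 0.068). In RefSeq's gene order (UCB_Xtro_10.0) these genes are neighbours on chromosome 7, in the order ventx3.2, ventx1.2, ventx3.1, ventx2.2, ventx1.1 and ventx2.1, of which ventx3.1 is not among the members. Within this row, reads on ventx1.1 amounted to 0.336 and 0.421 of those on the adjacent ventx2.1 in CoMo and to 1.02 and 0.847 in H1H2Mo. Since ventx1.1 was on the ranked list and ventx2.1 was not, a difference between them was favoured by the naming, and nothing is read from it. An exact permutation test over 2 against 2 libraries cannot give a two-sided p below 0.333. The plot of members higher in H1H2Mo shows the levels in every library.

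**Figure D2:**
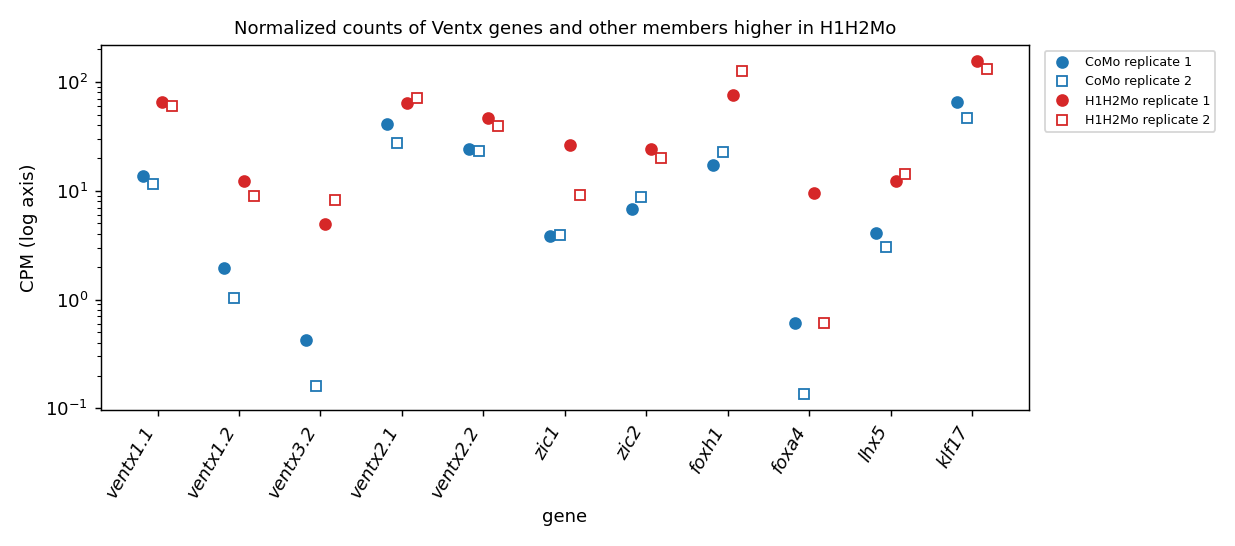
Levels of the Ventx genes and of the other members called higher, as CPM on a log axis. Circles are replicate 1 and squares replicate 2, blue is CoMo and red is H1H2Mo. Replicates lie close together for ventx1.1 and zic2, while foxa4 is at 9.44 CPM in H1H2Mo replicate 1 and at 0.614 CPM in H1H2Mo replicate 2, close to CoMo replicate 1.

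The other genes of ventral and non-neural ectoderm showed no common direction. Over a list of 14 such genes (the Ventx genes included), 3 were called higher, 1 lower and 10 not. Over all genes tested, 5.83% were called higher and 10.7% lower. The 3 called higher are Ventx genes and the 1 called lower is grhl2. All 4 were on the ranked list, so that nothing is read from their number. The median log2FC of the 14, which includes the Ventx genes, was 0.70, beside 0.05 over all genes tested. Since the 4 genes on the ranked list enter it, nothing is read from this median either. GATA2, a zinc finger factor of ventral ectoderm and blood, is encoded by gata2, whose levels were 142.9 and 255.3 CPM in CoMo against 584.2 and 338.3 CPM in H1H2Mo (log2FC 1.21, SE 0.41, adjusted p = 0.063). For tfap2a, a regulator of epidermis and neural crest, levels were 430.9 and 449.1 CPM against 192.7 and 259.1 CPM (log2FC -0.96, SE 0.35, adjusted p = 0.081). In both genes the conditions did not overlap, but the threshold was missed, and the differences point in opposite directions. DESeq2 called gata2 and tfap2a (adjusted p = 0.018 and 0.037). The Msx genes are direct BMP targets, and neither was called by edgeR or DESeq2 or had an unadjusted p under 0.05. For msx1 the log2FC was 0.54 (SE 0.34), from 249.0 and 218.7 CPM in CoMo to 344.7 and 336.0 CPM in H1H2Mo, and for msx2 it was -0.17 (SE 0.35).

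Dlx genes encode homeodomain activators of the non-neural ectoderm, and of the 4 members only dlx4 was called, beside 16.5% of all genes tested. For dlx4, levels were 81.9 and 57.9 CPM in CoMo against 22.2 and 5.52 CPM in H1H2Mo, a log2FC of -2.33 (SE 0.52). Its neighbour on chromosome 10, dlx3, stood at 175.7 and 171.3 CPM in CoMo and at 159.5 and 157.2 CPM in H1H2Mo (log2FC -0.13, SE 0.32, adjusted p = 0.82). The ratio of reads on dlx4 to reads on dlx3 was 0.466 and 0.338 in CoMo and 0.139 and 0.0351 in H1H2Mo. Since dlx4 was on the ranked list and dlx3 was not, a difference between them was favoured by the naming, and nothing is read from it. For dlx5, levels were 97.2 and 113.7 CPM against 133.7 and 102.0 CPM, which overlap (log2FC 0.16, SE 0.33, adjusted p = 0.79). The SE of about 0.3 leaves room for moderate changes in dlx3 and dlx5. For dlx2 the log2FC was 0.17 (SE 0.48).

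The foxi4 genes, which encode forkhead factors of the early ectoderm, are also neighbours (chromosome 1). For foxi4.2, levels were 32.7 and 33.2 CPM in CoMo against 65.4 and 59.1 CPM in H1H2Mo (log2FC 0.92, SE 0.31, adjusted p = 0.065, and 0.041 with DESeq2). For foxi4.1 they were 77.2 and 53.1 CPM against 32.5 and 73.4 CPM, which overlap (log2FC -0.30, SE 0.40, adjusted p = 0.67). In grhl2, a regulator of epithelial junction genes, levels were 39.7 and 31.9 CPM in CoMo against 13.8 and 10.4 CPM in H1H2Mo, a log2FC of -1.56 (SE 0.35). No value of grhl2 in H1H2Mo reached even the lower CoMo value. This gene was on the ranked list, which favours such a gap, and nothing is read from it.

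Among factors of the neural ectoderm, zic1, zic2 and lhx5 were higher in H1H2Mo and pou4f1.2 and sox21-like.2 lower. Over the list of 10 neural factors, 3 were called higher, 2 lower and 5 not, with a median log2FC of -0.09. Over all genes tested, 5.83% were called higher and 10.7% lower. Of the called factors, zic1, zic2, lhx5 and pou4f1.2 were on the ranked list. Nothing is therefore read from the number of calls or from the median. Zic proteins are zinc finger factors of the neural plate and its border. For zic2, levels were 6.82 and 8.72 CPM in CoMo against 24.1 and 20.0 CPM in H1H2Mo, a log2FC of 1.5 (SE 0.37). For zic1 they were 3.84 and 3.92 CPM against 26.2 and 9.20 CPM, a log2FC of 2.19 (SE 0.50). The value of zic1 rests in part on H1H2Mo replicate 1, without which the log2FC was 1.25 and the call was lost. For lhx5, a LIM homeodomain factor of the anterior neural plate, levels were 4.08 and 3.05 CPM in CoMo against 12.3 and 14.3 CPM in H1H2Mo, a log2FC of 1.91 (SE 0.42).

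POU4F1 is a factor of sensory neurons, and pou4f1.2 had 2.74 and 3.94 CPM in CoMo against 0.504 and 0.446 CPM in H1H2Mo, a log2FC of -2.80 (SE 0.67), from 14 and 8 reads in the H1H2Mo libraries. The gene sox21-like.2 is named after Sox21, a factor of neural progenitors, and fell from 72.7 and 75.1 CPM to 41.4 and 24.9 CPM (log2FC -1.15, SE 0.35, adjusted p = 0.037), although the call was lost under upper-quartile scaling and without either CoMo library or H1H2Mo replicate 2. The Irx genes encode homeodomain factors that act in neural patterning. None of the 3 was called by edgeR, beside 16.5% of all genes tested, while 2 had an unadjusted p under 0.05 and DESeq2 called 1, irx1. For irx1, levels were 44.6 and 69.0 CPM in CoMo against 18.1 and 33.2 CPM in H1H2Mo (log2FC -1.15, SE 0.38, adjusted p = 0.059). For pou3f1 and pou3f2, which act in neural progenitors, the log2FC was -0.14 (SE 0.66) and 0.45 (SE 0.68).

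Of 4 markers of neural tissue that are not members (ncam1, elavl2, elavl3 and tubb3), 3 were called lower and elavl2 was not called (log2FC 0.30, SE 0.38, adjusted p = 0.65). The 3 called were on the ranked list, so that their count is no independent evidence. The summed level of all 4 markers was 136.2 and 38.0 CPM in CoMo against 18.7 and 24.1 CPM in H1H2Mo. These sums include elavl2, with 15.5 and 10.4 CPM against 14.5 and 17.3 CPM, which held most of the sum in both H1H2Mo libraries. In bulk ACs, fewer cells of a type and less RNA per cell cannot be told apart. The part of this marker change in the values of pou4f1.2 and sox21-like.2 was not tested.

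The Nkx2 genes and tbx20 are best known from heart and pharynx. Those called were lower in H1H2Mo, but all of them were on the ranked list, so that no common direction is read from them. Over a list of 11 factors of endoderm, heart and organizer, 5 were called lower, 2 higher and 4 not, with a median log2FC of -1.17. Among all genes tested, 10.7% were called lower and 5.83% higher, with a median of 0.05. Of the 7 called, 6 were on the ranked list, so that nothing is read from their number or from the median. The list also holds both directions. For foxa4, foxh1, sox17a and sox17b.2 the log2FC was positive, and for the other factors it was negative. Of the genes named next, nkx2-5, nkx2-3, nkx2-6 and tbx20 were on that list. For nkx2-5, levels were 288.3 and 334.7 CPM in CoMo against 50.3 and 36.9 CPM in H1H2Mo, a log2FC of -2.84 (SE 0.36). For nkx2-3 they were 126.0 and 192.4 CPM against 64.4 and 45.7 CPM, a log2FC of -1.53 (SE 0.36). For nkx2-6 they were 25.2 and 9.88 CPM against 1.08 and 5.63 CPM, a log2FC of -2.40 (SE 0.67). The replicates of nkx2-6 differed several-fold in both conditions. The conditions did not overlap, which the ranked list favours. The fourth member, nkx2-1, known from thyroid, lung and forebrain, had 2 and 4 reads in CoMo and 0 and 1 in H1H2Mo, and no change can be read at this depth.

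In tbx20, a T-box factor of the heart, levels were 48.7 and 20.7 CPM in CoMo against 3.57 and 7.98 CPM in H1H2Mo, a log2FC of -2.59 (SE 0.50). The other 5 tested T-box genes were not called, beside 16.5% called over all genes tested. For tbx2 and tbx3, which encode repressors, levels were 68.5 and 118.4 CPM against 147.9 and 132.0 CPM (log2FC 0.58, SE 0.35, adjusted p = 0.30) and 317.0 and 334.5 CPM against 257.7 and 209.0 CPM (log2FC -0.48, SE 0.34, adjusted p = 0.38). In both genes the conditions did not overlap, as was the case for 59.5% of all genes tested. For tbx22 the log2FC was -2.35 (SE 0.95), the largest absolute value among members not called.

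Of the Pou2 genes, which encode octamer-binding factors, pou2f3 was called lower and pou2f1 was not called. Since pou2f3 was on the ranked list and pou2f1 was not, a difference between them was favoured by the naming, and nothing is read from it. The strongest decrease of any member was in pou2f3, known in mammals from epidermis and tuft cells, with 72.0 and 68.9 CPM in CoMo against 1.95 and 3.29 CPM in H1H2Mo, a log2FC of -4.76 (SE 0.41), or 27.1-fold. Its call was kept without any one of the libraries. The widely expressed pou2f1 had 38.4 and 66.2 CPM in CoMo against 121.8 and 101.4 CPM in H1H2Mo (log2FC 1.09, SE 0.35, adjusted p = 0.052). It was called under 8 of the 12 alternative settings, among them DESeq2 (adjusted p = 0.024). The plot of members lower in H1H2Mo shows pou2f3 and nkx2-5 beside dlx3 and dlx5.

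**Figure D3:**
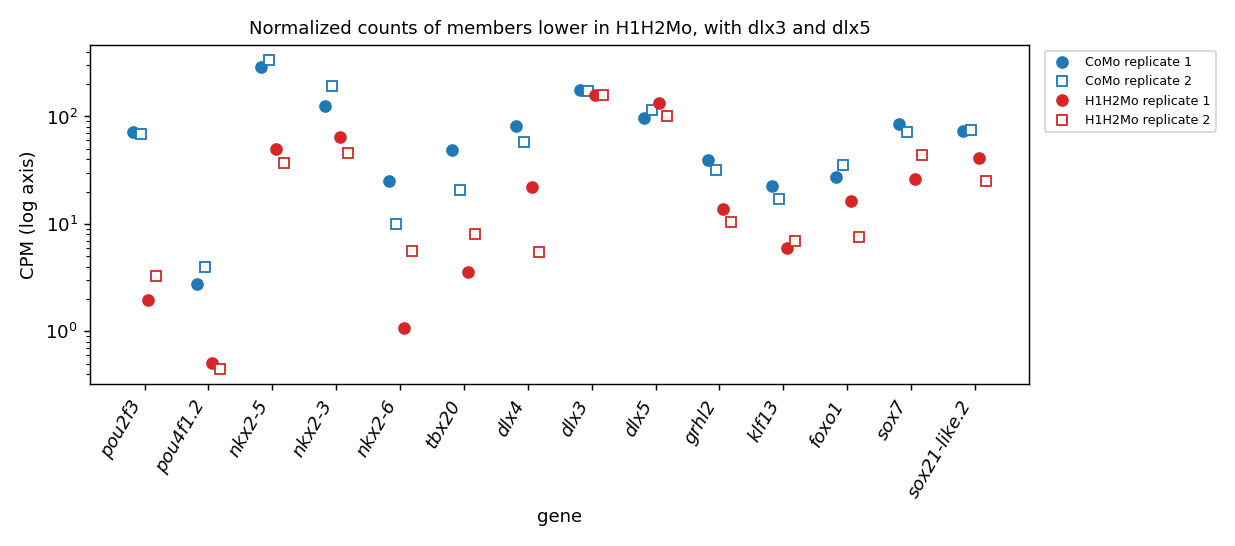
Levels of the members called lower, with dlx3 and dlx5 for comparison, as CPM on a log axis. Circles are replicate 1 and squares replicate 2, blue is CoMo and red is H1H2Mo. The H1H2Mo values of pou2f3 lie at 1.95 and 3.29 CPM, far below CoMo, while the values of dlx3 lie between 157.2 and 175.7 CPM in all 4 libraries.

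Most of the markers of other epidermal cell types were lower in the same libraries as pou2f3, dlx4 and grhl2. Markers of small secretory cells were called lower in 3 of 3 genes, with summed levels of 1509 and 1087 CPM in CoMo against 21.1 and 37.5 CPM in H1H2Mo. Ionocyte markers were called lower in 5 of 8 genes (741.6 and 511.8 CPM against 216.4 and 307.2 CPM), multiciliated cell markers in 5 of 7 (4345 and 5519 CPM against 1473 and 1772 CPM) and goblet cell markers in 2 of 2 (960.8 and 445.9 CPM against 189.0 and 62.5 CPM). The basal cell marker tp63 was also lower (278.7 and 492.2 CPM against 67.0 and 125.0 CPM). In cement gland markers 1 of 2 was called lower. The share called lower over all genes tested was 10.7%. Not called were foxi1, ca12, ubp1, foxj1, rfx2 and pitx1, of which ubp1 was higher in both H1H2Mo libraries (log2FC 0.56, SE 0.31). Single genes held most of 2 sums. In CoMo replicate 1, tubb4b had 3198 of the 4345 CPM of multiciliated cell markers, and chga 1375 of the 1509 CPM of small secretory cell markers. The called markers of these lists other than that of the cement gland were on the ranked list, so that their counts are no independent evidence. Their part in the values of the members was not tested.

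Among the 14 Fox symbols, 2 were called higher and 1 lower, beside 5.83% and 10.7% of all genes tested. The 2 called higher, foxh1 and foxa4, were on the ranked list, so that nothing is read from their number. FOXH1 is a DNA-binding partner of SMAD2 and SMAD4 in Nodal signalling, and its RNA rose from 17.1 and 22.5 CPM in CoMo to 75.6 and 125.5 CPM in H1H2Mo, a log2FC of 2.34 (SE 0.37). For smad2, which encodes that partner and was also on the ranked list, levels were 37.9 and 43.1 CPM against 116.0 and 111.5 CPM, and for smad4.1 the log2FC was 1.36 (SE 0.34, adjusted p = 0.016). For smad3 it was 0.47 (SE 0.41, adjusted p = 0.48). In the insulin-regulated factor foxo1, levels fell from 27.1 and 35.5 CPM to 16.2 and 7.53 CPM (log2FC -1.40, SE 0.41, adjusted p = 0.035), a call that was lost without either CoMo library or H1H2Mo replicate 2. For its paralog foxo3 they were 32.6 and 36.2 CPM against 39.3 and 34.0 CPM (log2FC 0.09, SE 0.32, adjusted p = 0.88). The prefix-only gene foxred2 had a log2FC of -1.08 (SE 0.37, adjusted p = 0.062), and gatad2b one of 1.85 (SE 0.74, adjusted p = 0.11). DESeq2 called foxred2 (adjusted p = 0.041) and did not call gatad2b (adjusted p = 0.073).

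The increase of foxa4, a forkhead factor of the organizer and notochord, came from 1 library. It had 0.609 and 0.137 CPM in CoMo against 9.44 and 0.614 CPM in H1H2Mo, or 262 and 11 reads. Without H1H2Mo replicate 1 its log2FC of 3.92 (SE 1.1) became 0.86 and the call was lost. Several members not called by edgeR had the same distribution, of which DESeq2 called sox17a (adjusted p = 0.047). For sox9, a factor of neural crest and placodes, levels were 6.58 and 15.1 CPM in CoMo against 53.4 and 6.02 CPM in H1H2Mo, and for sox17a, an endoderm factor, 1.77 and 4.40 CPM against 17.7 and 3.18 CPM. Likewise, foxe3, foxk2, hoxc3, klf4, klf11, pou3f1 and tbx1 were at least 3 times as high in H1H2Mo replicate 1 as in replicate 2. In replicate 1 these genes exceeded both CoMo libraries, and in replicate 2 they lay inside the range of CoMo or below it.

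With 0.5 CPM added to each value, 17 of the 74 tested members (23.0%) were over 2-fold higher in H1H2Mo replicate 1 than in replicate 2, and 4 (5.41%) the reverse, whereas over all genes tested the shares were 8.85% and 4.27%. The log2 ratio of the H1H2Mo libraries had an SD of 0.99 over the members and of 0.71 over all genes, and that of the CoMo libraries an SD of 0.76 and 0.53. Among mesoderm markers outside the members, chrd was at 28.3 CPM in H1H2Mo replicate 1 and at 4.18 CPM in replicate 2, while wnt8a was at 1.48 CPM in replicate 1 and at 32.0 CPM in replicate 2. The endoderm markers mixer and mix1 summed to at most 2.23 CPM in any library. The plot of each H1H2Mo library against the CoMo mean holds only members and shows sox9, sox17a and foxa4 below the diagonal.

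**Figure D4:**
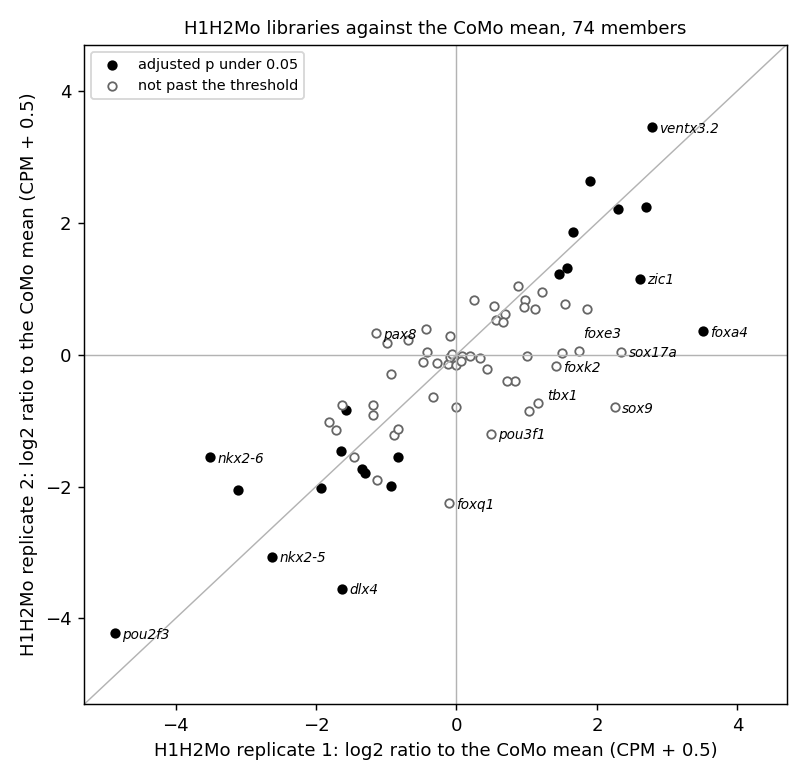
Log2 ratio of each H1H2Mo library to the mean of the CoMo libraries for the 74 tested members, with 0.5 CPM added to each value. The x axis is H1H2Mo replicate 1 and the y axis replicate 2, filled points are called genes, and the diagonal marks equal ratios. Genes such as sox9, sox17a and foxa4 are raised in replicate 1 alone, while ventx3.2, nkx2-5 and pou2f3 lie close to the diagonal.

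Of the 7 Sox members, 6 were tested and 2 were called, both lower, beside 10.7% of all genes tested that were called lower. The second beside sox21-like.2 was sox7, a factor of blood vessels and endoderm related to Sox17, which fell from 85.7 and 71.1 CPM to 26.0 and 43.8 CPM (log2FC -1.17, SE 0.35, adjusted p = 0.038). This call was lost under upper-quartile scaling and without either CoMo library or H1H2Mo replicate 1. For sox4, a factor of progenitor cells, levels were 50.9 and 71.0 CPM in CoMo against 100.8 and 46.0 CPM in H1H2Mo, which overlap (log2FC 0.27, SE 0.39, adjusted p = 0.70). The neural crest factor sox10 had 7 and 3 reads in CoMo and 0 and 0 in H1H2Mo and was not tested. Among the neural crest markers, snai2, which was on the ranked list, was lower (20.5 and 12.6 CPM against 1.91 and 1.00 CPM) and twist1 was not (log2FC 1.63, SE 0.73, adjusted p = 0.15).

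Of the 10 Klf genes, which encode Krüppel-like zinc finger factors, 1 was called higher and 1 lower, beside 5.83% and 10.7% of all genes tested. The 1 called higher, klf17, was on the ranked list, so that nothing is read from its call. For klf17, known in human from the naive pluripotent state, levels were 64.9 and 46.7 CPM in CoMo against 154.5 and 130.8 CPM in H1H2Mo, a log2FC of 1.36 (SE 0.34). In klf13, levels fell from 22.6 and 17.2 CPM to 6.02 and 6.92 CPM (log2FC -1.62, SE 0.38, adjusted p = 0.012), and the call was lost only when either CoMo library was left out. The conditions lay apart in both genes, which for klf17 was favoured by the naming. The gene klf7, with at most 2.82 CPM, missed the threshold with edgeR (log2FC -2.17, SE 0.70, adjusted p = 0.051) and was called by DESeq2 (adjusted p = 0.027). For klf6 levels were 435.1 and 815.9 CPM in CoMo against 350.1 and 285.1 CPM in H1H2Mo (log2FC -0.98, SE 0.40, adjusted p = 0.12). For klf5, a factor of epithelial progenitors, they were 126.1 and 136.6 CPM against 81.5 and 153.8 CPM, which overlap (log2FC -0.16, SE 0.36, adjusted p = 0.81).

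Hox genes set position along the body axis. Of 8 members, 6 were tested and none was called by edgeR, while 1 had an unadjusted p under 0.05 and 1 was called by DESeq2. Over all genes tested, edgeR called 16.5%. On their own strand, hoxa2, hoxb3, hoxc3, hoxc5 and hoxd10 did not exceed 1.87 CPM in any library. At so few genes and such low levels, the lack of calls does not show that the family was unchanged. For hoxb3, levels were 0.609 and 1.87 CPM in CoMo against 1.23 and 1.06 CPM in H1H2Mo. The genes hoxb1 (0, 6, 0 and 3 reads) and hoxc9 (2, 0, 0 and 8 reads), were not tested, and each had a library of either condition without a read.

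Hox proteins bind DNA together with cofactors of the Pbx and Meis families, and 3 of 6 such genes were called lower, beside 10.7% of all genes tested. Of these 3, meis2 was on the ranked list, so that nothing is read from their number. For meis1 the log2FC was -1.30 (SE 0.38, adjusted p = 0.033), from 97.9 and 123.9 CPM in CoMo to 60.2 and 30.1 CPM in H1H2Mo. For meis3 it was -1.43 (SE 0.45, adjusted p = 0.048), from 90.2 and 202.5 CPM to 34.2 and 74.6 CPM. The levels of meis2, which was on the ranked list, were 18.3 and 17.4 CPM against 1.66 and 1.17 CPM. For pbx2 the log2FC was -0.46 (SE 0.38, adjusted p = 0.46), and it was not called.

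In all, 30 genes encoding partners of these families or parts of the BMP pathway were examined, of which 6 were on the ranked list. Of the 30, 7 were called lower and 3 higher, with a median log2FC of -0.30, beside 10.7% lower, 5.83% higher and a median of 0.05 over all genes tested. All 6 genes on the ranked list were among these calls, so that nothing is read from the number of calls or from the median. The LIM-domain gene lmo4.2 was higher (50.4 and 78.0 CPM against 127.5 and 240.7 CPM, log2FC 1.52, SE 0.39, adjusted p = 0.019), while ldb1, the common partner of LIM homeodomain proteins, had a log2FC of 0.03 (SE 0.37). The co-activator genes eya1 and eya2, whose proteins work with sine oculis homeobox factors, and the Tfap2 inhibitor gene kctd15 were on the ranked list and lower, eya1 from 62.1 and 47.4 CPM to 6.38 and 17.2 CPM. In the BMP pathway, bmpr2, also on the ranked list, was lower, and the ligand genes bmp2, bmp4 and bmp7.1 were not called, with log2FC of -0.87 (SE 0.42), -0.27 (SE 0.33) and -0.34 (SE 0.33). The BMP antagonist genes nog, chrd and grem1 were not called either. The log2FC was 1.58 (SE 0.67) for nog and 1.255 (SE 0.65) for chrd, while grem1 had only 1, 13, 0 and 1 reads. Also not called were szl (log2FC 1.48, SE 0.53, adjusted p = 0.079) and id2 (log2FC 0.24, SE 0.34). Both nog and szl were higher in both H1H2Mo libraries than in both CoMo libraries.

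Most of the remaining members showed no difference beyond the replicates. For foxm1, a factor of proliferating cells, levels were 9.02 and 12.0 CPM in CoMo against 9.87 and 12.9 CPM in H1H2Mo (log2FC 0.11, SE 0.39, adjusted p = 0.88). For foxn2 they were 17.7 and 20.5 CPM against 20.2 and 18.9 CPM (log2FC 0.03, SE 0.34), for foxp4 14.7 and 13.9 CPM against 10.1 and 13.1 CPM (log2FC -0.30, SE 0.37), and for klf15 3.41 and 4.67 CPM against 2.85 and 5.47 CPM (log2FC 0.03, SE 0.53). The value of klf10, 37.3 and 107.0 CPM in CoMo against 75.9 and 67.4 CPM in H1H2Mo, differed more between the CoMo libraries than between conditions. The same was true of irx4 (1.52 and 5.88 CPM against 3.53 and 3.74 CPM) and of foxc1 (0.548 and 5.94 CPM against 1.51 and 1.12 CPM), a factor of mesoderm and neural crest.

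Other members lay apart without reaching the threshold. For irx3, levels were 0.792 and 3.64 CPM in CoMo against 0.324 and 0.725 CPM in H1H2Mo (log2FC -2.13, SE 0.86, adjusted p = 0.11). For tbx15 they were 0.366 and 0.228 CPM against 1.23 and 0.781 CPM (log2FC 1.79, SE 0.90, adjusted p = 0.20), and for sox17b.2 0.366 and 0.228 CPM against 0.792 and 0.725 CPM (log2FC 1.39, SE 0.93, adjusted p = 0.36). These are genes with few reads. In foxq1, levels were 4.94 and 6.28 CPM in CoMo against 5.19 and 0.781 CPM in H1H2Mo, so that H1H2Mo replicate 2 alone was low, and in pax8, a factor of kidney and ear, 2.56 and 3.73 CPM against 1.15 and 4.07 CPM, so that H1H2Mo replicate 1 alone was low. The genes hoxc5 and hoxd10 did not exceed 0.837 CPM in any library.

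For 4 members, more reads lay on the strand opposite to the gene than on its own. These were hoxa2 with 89.8% of 686 opposite and 78 own reads together, hoxc3 with 87.0% (348 and 52 reads), klf9 with 73.9% (156 and 55 reads) and lhx4 with 71.6% (244 and 97 reads). The library kit keeps strand, and the opposite reads do not enter the fold changes. In the other 64 members with at least 100 reads, the median share of opposite reads was 0.486% and the highest 21.6%, in klf13. The plot of reads by strand gives both levels per library.

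**Figure D5:**
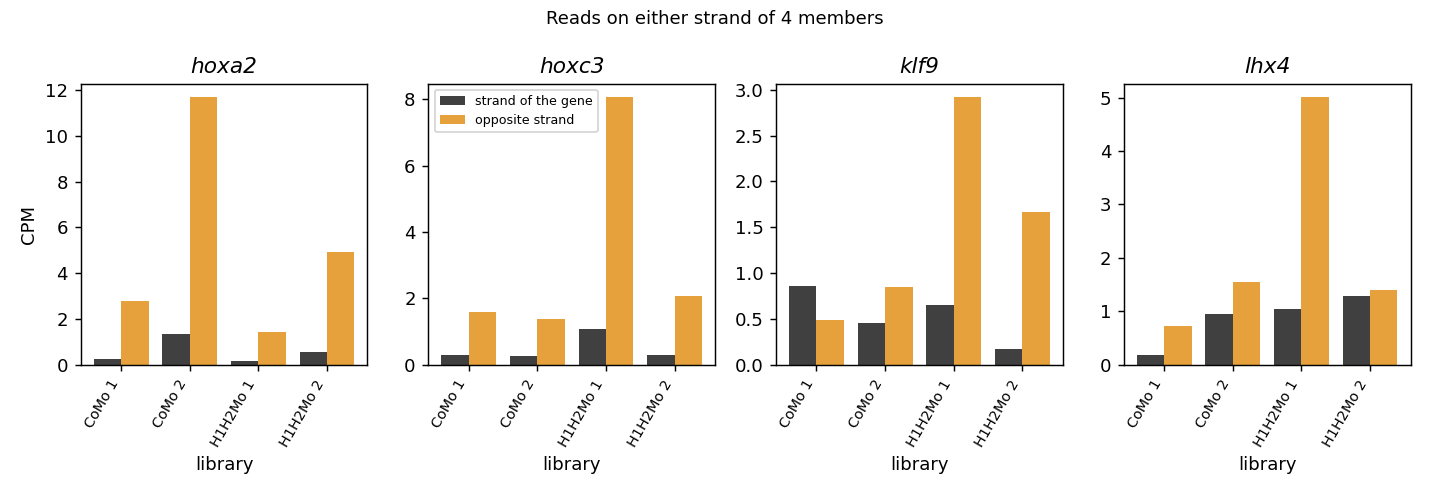
Levels on the gene's own strand (grey) and on the opposite strand (orange), as CPM from 0 for each library, for the 4 members with more reads on the opposite strand. On the opposite strand, hoxa2 is highest in CoMo replicate 2 at 11.7 CPM and hoxc3 in H1H2Mo replicate 1 at 8.07 CPM.

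The calls rest on all 4 libraries to different degrees. No called member changed the sign of its log2FC under any of the 12 alternative settings. Leaving out CoMo replicate 1 left 5 of the 21 calls (pou2f3, nkx2-5, ventx1.1, ventx1.2 and ventx3.2), and leaving out CoMo replicate 2 left 6 (pou2f3, nkx2-5, tbx20, foxh1, ventx1.1 and ventx3.2). Without H1H2Mo replicate 1, 18 of the 21 remained, all but foxa4, zic1 and sox7, and without H1H2Mo replicate 2, 19 remained, all but foxo1 and sox21-like.2. The calls kept without either CoMo library are all of genes on the list ranked by p in these libraries, so that their staying called is no independent support. In 10 members the adjusted p lay between 0.05 and 0.1, and in 24 of the members not called the SE exceeded 0.6.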

How the data were processed

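RNA-seq counts of ACs at NF16 were used, from 2 CoMo and 2 H1H2Mo libraries. The authors aligned the reads with STAR 2.7.1a to X. tropicalis v9.1 and deposited raw counts per gene, unstranded and by strand. Identifiers were named from the parts at hand of the study's supplementary lists, of which only identifiers, names and list membership were used. The authors' fold changes and p-values in them were not used.

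From the reverse-strand counts, edgeR 4.0.16 (R 4.3.3) was run with TMM scaling, the quasi-likelihood test with condition as the only term, and Benjamini-Hochberg adjustment. The test was limited to genes detected by at least 1 read in 75% of the libraries. SEs were computed from the log2FC and the F statistic. The test was tried on simulated counts. DESeq2 1.42.0, other scalings and filters, unstranded counts, a replicate block, stricter thresholds and leaving out each library were alternatives. Per library, between 17054150 and 47407319 read pairs were counted on the reverse strand of genes, and the precision is limited by the 2 libraries per condition. The members and lists were chosen with earlier results of these data known. Named were all called members, and in families with at least 4 tested members the 2 with the highest mean CPM. Members near the threshold, untested members and further members were named after their values were seen. No sequences are printed, as none were used here. Single results of 2 genes are not reported here.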

Additional observations from a re-analysis of the deposited data

Results flagged for a closer look

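Reads on the strand opposite to a member were not part of the comparison of conditions. Among the 4 members with more reads on the opposite strand than on their own, 2 had opposite-strand reads that were higher in both H1H2Mo libraries than in both CoMo libraries. For hoxc3 they stood at 1.58 and 1.39 CPM in CoMo and at 8.07 and 2.06 CPM in H1H2Mo, so that the H1H2Mo mean was 3.41 times the CoMo mean. On the gene's own strand hoxc3 had 0.305 and 0.273 CPM against 1.08 and 0.279 CPM. For klf9 the opposite strand had 0.487 and 0.842 CPM in CoMo against 2.92 and 1.67 CPM in H1H2Mo, a ratio of 3.45. These rest on 8 to 224 reads per library, and no test was run. Opposite-strand reads were also higher in both H1H2Mo libraries in members where they take a small share of the reads, among them dlx4 (1.37%) and zic2 (5.11%). Over all genes, the reverse strand took 98.16% and 98.03% of the stranded reads in CoMo and 97.49% and 97.99% in H1H2Mo. The share of opposite reads was thus slightly higher in both H1H2Mo libraries as a whole. How many of all genes show such a rise was not counted.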

How the results depend on the processing

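The 21 member calls (12 lower and 9 higher) were kept under RLE scaling, without the filter on low counts, with at least 10 reads in 2 samples, with unstranded counts, with DESeq2 and with the replicate block, and 19 were kept under upper-quartile scaling. The number of members called was 32 without the filter (14 higher), 31 with DESeq2 (14 higher) and 11 at an adjusted p under 0.01, and it was 4 when only members named outside the ranked list were counted. Leaving out 1 library gave 5 to 36 calls (2 to 16 lower and 3 to 20 higher), 481 to 4375 called genes over all genes in place of 3196, and 1 to 15 called partner genes in place of 10. A lone library of a condition is then assumed to vary like the other condition.

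The replicate numbers share no stated origin. The deviations of same-numbered libraries from the means of their conditions had a weak negative correlation over genes (-0.21). With 2 libraries per condition this cannot show how the libraries pair. With the replicate block 25 members were called. With crossed pairs, an alternative chosen after seeing the data, 33 members (16 higher) and 4843 of all genes were called.

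Of the 74 tested members, 25 changed the sign of their log2FC under at least 1 setting, and none of these was called. Over the libraries left out in turn, the log2FC ranged from -0.22 to 0.59 for dlx2, -0.05 to 0.34 for dlx5, -2.14 to 1.28 for foxc1, -1.0 to 0.17 for foxi4.1, -0.19 to 1.43 for foxk2, -0.09 to 0.35 for foxm1, -0.05 to 0.17 for foxn2, -0.02 to 0.19 for foxo3, -2.19 to 0.57 for hoxa2, -0.68 to 0.92 for hoxb3, -0.04 to 1.9 for hoxc3, -1.32 to 0.87 for hoxd10 and -0.67 to 1.27 for irx4. It ranged from -0.56 to 0.96 for klf10, -0.86 to 1.03 for klf11, -0.51 to 0.43 for klf15, -0.69 to 0.23 for klf5, -1.89 to 0.03 for klf9, -0.43 to 0.14 for msx2, -1.46 to 0.36 for pax8, -1.51 to 0.53 for pou3f1, -0.56 to 1.02 for pou3f2, -0.41 to 0.72 for sox4, -0.86 to 2.29 for sox9 and -1.11 to 2.41 for tbx1. Other settings turned the sign of 6 of these. With unstranded counts the log2FC was 0.21 for hoxd10, 0.07 for irx4 and 1.02 for klf9. With the replicate block it was 0.06 for hoxb3, 0.25 for irx4, 0.18 for klf10 and -0.01 for klf15, and with crossed pairs 0.03, 0.21, 0.17 and -0.03. Under upper-quartile scaling it was 0.04 for irx4 and 0.07 for klf10, and for klf10 also 0.01 under RLE scaling and with DESeq2 and 0.0 with at least 10 reads in 2 samples. The causes were not tested. At this depth, 14 tested members had a mean of under 50 reads.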
